A study of Mus musculus with 4 samples.

Results

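The genes followed here carry a symbol that begins with *Tex*, *Spata*, *Tssk* or *Tsga* and a digit. *Tex11*, *Tex12* and *Spata22*, which act in meiotic chromosome synapsis and recombination, were left out. This gave 27 of the 11598 genes in the deposited table of ribosome-protected fragments (RPFs): 13 *Tex*, 11 *Spata*, 2 *Tsga* genes and 1 *Tssk* gene. RPFs are the short stretches of mRNA that a ribosome shields from nuclease, so their abundance combines the level of an mRNA with the number of ribosomes on it. The mRNA level was not analysed here, and the RPF values alone cannot tell these components apart.

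The RPFs came from leptotene/zygotene spermatocytes, the germ cells at the onset of meiotic prophase, which were sorted by Hoechst fluorescence from testes at 12 days post partum. There were 2 Control libraries, labelled as wild type, and 2 *Eef1g*-cKO libraries. *Eef1g* encodes the gamma subunit of the translation elongation factor complex eEF1B. In *Eef1g*-cKO males, *Stra8*-GFPCre removes exons 2 to 7 of floxed *Eef1g* in male germ cells from type A1 spermatogonia onwards. The paper reports that eEF1G protein was markedly reduced on a Western blot of sorted *Eef1g*-cKO leptotene/zygotene spermatocytes, and absent from spermatocytes by immunofluorescence. In these libraries, how complete the removal was is seen only from the *Eef1g* reads given below. The mice were C57BL/6J.

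The symbols record where transcripts were first found and do not name a protein family. *Tex* stands for testis expressed, *Spata* for spermatogenesis associated, *Tssk* for testis-specific serine kinase and *Tsga* for testis-specific gene. Some members act in germ cells before or during meiosis, some build the sperm head or tail after meiosis, and many are used in cells throughout the body. In spermatocytes, transcripts for later sperm proteins can be made well before the protein is needed, and many are stored before translation. Members are therefore described below by role, in lists written from general knowledge.

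The 2 Control libraries held 2479504 and 1384282 reads counted on genes and the 2 *Eef1g*-cKO libraries 223906 and 407979, so Control was on average 6.11-fold deeper. A single read on a gene of 1 kb was worth 0.403 and 0.722 FPKM in Control and 4.47 and 2.45 FPKM in *Eef1g*-cKO. *Eef1g* itself had 107 and 58 Control reads, against 0 and 4 in the *Eef1g*-cKO libraries. Scaled for depth these were 27.6 and 26.8 FPKM against 0 and 6.26 FPKM. The values are per gene and do not separate the deleted exons from the others. Of the members, 11 had fewer than 10 reads in at least 1 *Eef1g*-cKO library, and 9 had at least 100 reads in both Control libraries. The labels do not say that the libraries came from separate animals, so the p-values measure the spread between these libraries, which may be technical.

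Marker genes of neighbouring cell types moved with genotype. The 12 spermatogonial markers summed to 2732 and 3300 RPM in Control and 563 and 547 RPM in *Eef1g*-cKO, where RPM is a gene's reads per 1000000 reads counted on genes. The 11 leptotene/zygotene markers in the table summed to 4543 and 3682 RPM against 8365 and 7927, and the 7 pachytene markers to 966 and 727 RPM against 2054 and 2049. Of these 7, *Hist1h1t* (2.04) and *Clgn* (1.91) were increased on the log2 scale in limma and *Piwil1* (−1.46) was decreased at unadjusted p. Over all genes tested, 7.32% were increased and 16.3% decreased at this threshold. Of the 11 spermatogonial markers tested 7 were decreased, and of the 11 leptotene/zygotene markers 4 were increased. The paper reports arrest at zygotene, with no pachytene spermatocytes and no H1T signal in spermatocytes of *Eef1g*-cKO testes at later ages. Only 3 of 11 spermatid markers were in the table, and they summed to 5.65 and 28.2 RPM in Control and 13.4 and 4.90 in *Eef1g*-cKO. *Prm2*, which defines late spermatids, had 0 reads in Control replicate 1 and in both *Eef1g*-cKO libraries. In Control replicate 2, *Prm2* had 13 reads and *Tnp1* had 22, and the source of these reads was not tested. The 10 Sertoli cell markers summed to 1746 and 699 RPM against 907 and 726. Their median log2 fold change was −1.15, and 3 of the 10 were decreased at unadjusted p in limma (*Cldn11*, *Vim* and *Gata4*). By adjusted p, 0 were decreased in limma and 3 of 8 in edgeR. The shares of all genes decreased by adjusted p were 4.97% in limma and 11.2% in edgeR. The 3 peritubular markers summed to 125 and 91.7 RPM against 49.1 and 56.4, and the 3 Leydig cell markers to 7.26 and 11.6 against 8.93 and 4.90. None of the 5 macrophage markers was in the table. In the paper, sorted cells stained for SYCP3 and γH2AX held a similar share of leptotene/zygotene spermatocytes in both genotypes, without a significant difference. The paper also names *Sycp3*, *Hormad1*, *Dmc1* and *Meiob*, which are in the leptotene/zygotene list, as genes with increased RPFs. The part of these cell types in the results below was not tested, and in bulk samples fewer cells of a type and less RNA per cell cannot be told apart.

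**Figure D1:**
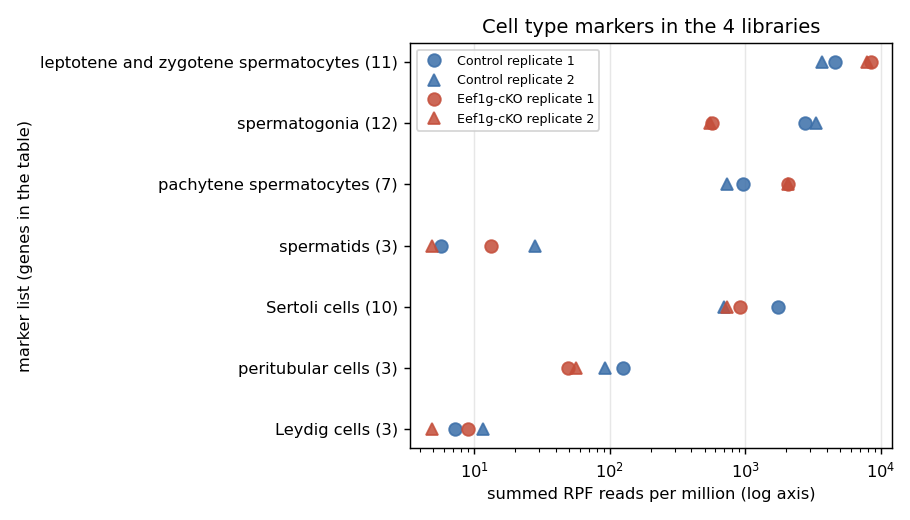
Summed RPFs of each cell type marker list, in RPM on a log axis, with 1 point for each of the 2 Control and 2 *Eef1g*-cKO libraries and the number of genes in the table beside each list. The spermatogonial sum was 2732 and 3300 in Control against 563 and 547 in *Eef1g*-cKO, and the spermatid sum lay at or below 28.2 in all 4 libraries.

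The start codons of the 6 increased members, of the decreased *Tex19.1* and of its paralog *Tex19.2* are shown first, because the ribosome begins there. Each line gives 12 bases before and 12 bases after the start codon of the longest GENCODE M21 coding sequence, with the start codon in capitals. *Tex16* has 9 annotated bases before its start. In GRCm38.p6 the genes lie at chr7:24668012-24672050 (*Tex101*), chr1:37754570-37866426 (*Tsga10*), chr1:187009614-187215511 (*Spata17*), chr3:146457202-146499793 (*Spata1*), chr4:111719951-111829142 (*Spata6*) and chrX:111896766-112127326 (*Tex16*).
*Tex101*: cttagagaagccATGggagcctgccgc
*Tsga10*: aatttaagaaaaATGatgagaaataga
*Spata17*: agcccagttgccATGgagactaatagt
*Spata1*: acactggacaacATGtcgctcaatcca
*Spata6*: taccctgcgcggATGccgaaggtgaag
*Tex16*: caaagtctgATGgaatctgaaaaa
*Tex19.1*: gacttcttgaccATGtgtcccccagtc
*Tex19.2*: gacttcttgaccATGtgtcccccagtc

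The *Tex19.1* and *Tex19.2* lines are identical. A purine lies 3 bases before the start codon in 21 of 25 members with an annotated base there (84%), against 86.3% of 10469 genes of the table. A G follows the start codon in 10 of 26 members (38.5%), against 53.2% of 10812 genes.

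The levels of the members spanned from 1.37 to 3870 FPKM as means over the 4 libraries. *Tex101*, which encodes a glycoprotein anchored on the germ cell surface, led at 3870 FPKM and ranked 41 and 31 among all genes in the Control libraries and 19 and 20 in *Eef1g*-cKO. *Spata5*, an AAA ATPase that acts in the maturation of the large ribosomal subunit, followed at 188.9 to 287.2 FPKM over the libraries, and overlapped neither *Tex101* nor the next gene in any library. *Tex30* (150.2 FPKM) and *Tex19.1* (128 FPKM) came next and overlapped each other across libraries. In each Control library *Tex19.1* was above *Tex30*, so this order over both genotypes is not that of Control. *Tex15* (59.8 to 83.7 FPKM), *Tex10* (mean 56.0 FPKM), *Tex14* (46.1 FPKM), *Spata24* (43.4 FPKM) and *Tex13* (38.8 FPKM) came after them, and each overlapped its neighbours in this order.

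*Tex16* (32.7 FPKM), *Spata33* (31.1 FPKM), *Tsga10* (29.8 FPKM), *Tex19.2* (28.7 FPKM) and *Tex264* (25.1 FPKM) formed a middle range. In Control alone, *Tsga10* (mean 12.5 FPKM) and, on average, *Tex16* (27.1 and 12.9 FPKM) were below *Tex19.2* (mean 31.2 FPKM). *Tex261*, *Spata6*, *Tex9* and *Spata17* lay between 10.2 and 14.1 FPKM, and *Tex2*, *Spata1* and *Spata2* between 5.58 and 9.75 FPKM. *Spata7*, *Tssk6*, *Tsga8*, *Spata5l1*, *Spata13* and *Spata2l* were below 5 FPKM, from 4.37 down to 1.37 FPKM, where a level rests on few reads. Neighbours in these ranges overlapped across libraries.

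**Figure D2:**
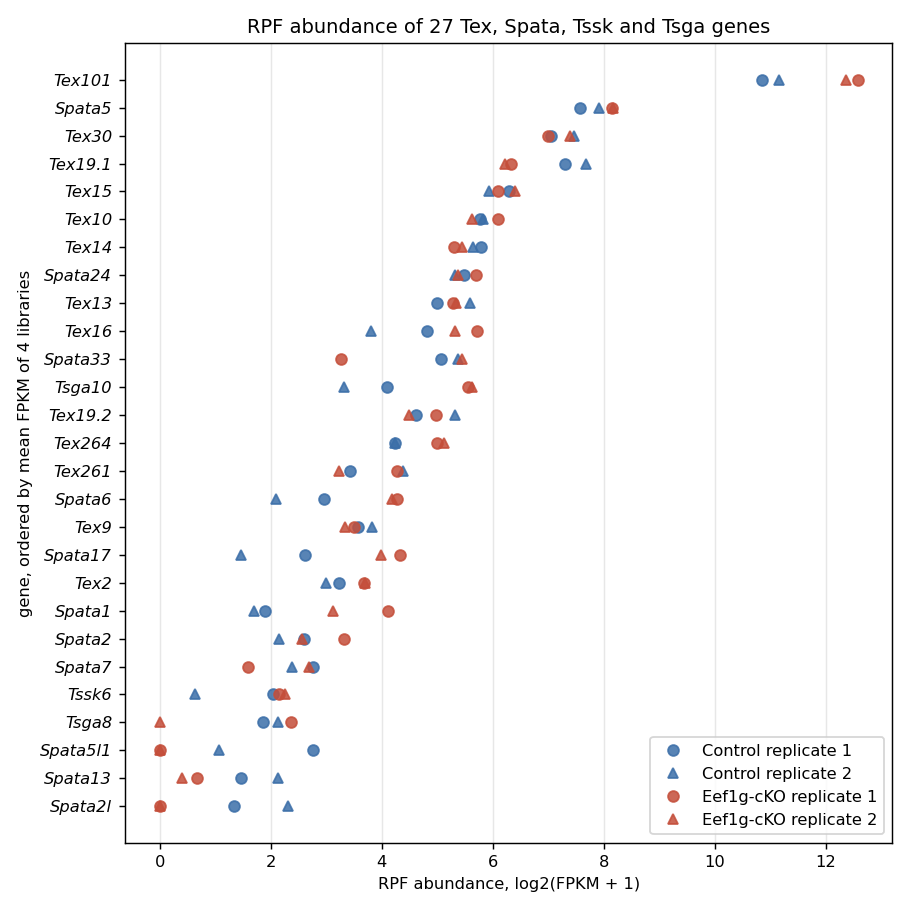
RPF level of each of the 27 members as log2(FPKM + 1), with 1 point for each of the 2 Control and 2 *Eef1g*-cKO libraries and the genes ordered by their mean. *Tex101* stood apart at 1835 to 6072 FPKM, and the *Eef1g*-cKO points of *Tsga10*, *Spata17*, *Spata1* and *Spata6* lay above both Control values.

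The comparison of genotypes asked how the RPF abundance of these genes differed without EEF1G. All 27 members had a mean of at least 1 FPKM and entered the limma fit on log2(FPKM + 1), which understates the change of low genes. RPFs of 6 members were increased in *Eef1g*-cKO by the unadjusted threshold (a log2 fold change past 1 in size with p below 0.05), against a background of 7.32% of the 10475 genes tested. *Tex101*, *Tsga10*, *Spata17*, *Spata1*, *Spata6* and *Tex16* made up this group. In the decreasing direction 3 members passed, *Tex19.1*, *Spata2l* and *Spata5l1*, against a background of 16.3%. *Spata2l* and *Spata5l1* had 0 reads in *Eef1g*-cKO and, like *Spata13*, reached the minimum mean only through Control (3 members, and 0 only through *Eef1g*-cKO), so a member that passed this way had to lie lower in *Eef1g*-cKO. With Benjamini-Hochberg adjustment over all genes, *Tsga10* alone was increased (background 2.87%) and *Tex19.1* alone was decreased (background 4.97%).

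On the reads recovered from the deposited normalized counts, edgeR's quasi-likelihood test tested 23 members. At an adjusted p under 0.05 it called the same 6 members increased, where 8.75% of 8056 genes were, and *Tex19.1* alone decreased, where 11.2% were. DESeq2 at the same threshold called *Tex101*, *Tsga10* and *Tex16* increased (background 5.94%) and *Tex19.1* decreased (background 5.34%). The median log2 fold change was 0.06 over the members, 0.14 with the 2 genes at 0 reads set to 3 reads, and −0.23 over all genes tested. When each library was centred on its median, the median of all genes moved by 0.21 and the values became 0.28 and −0.02. In limma, increases made up 66.7% of the unadjusted calls among members and 31.0% among all genes. After centring the shares were 77.8% and 46.2%, when *Tex264* joined the increases and *Spata5l1* left the decreases. The share over all genes depends on the method. By adjusted p, limma called 301 genes increased and 521 decreased, and edgeR 705 and 904, while in DESeq2 increases outnumbered decreases. Among the 3 decreases of members at unadjusted p are the 2 genes at 0 reads, so these shares do not set the members apart. The centred fit called 7 members increased (11% of all genes) and 2 decreased (12.8%) at unadjusted p, and 4 increased (4.97%) and 1 decreased (3.66%) by adjusted p.

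For 10 members the lower *Eef1g*-cKO value exceeded the higher Control value, and for 6 the order was the opposite. Over all 11598 genes the shares were 22.5% and 39%. The 10 members above were *Tex101*, *Tsga10*, *Spata17*, *Spata1*, *Spata6*, *Tex16*, *Tex264*, *Tex2*, *Spata5* and *Tssk6*. The smallest p that an exact permutation test of 2 libraries against 2 can give is 0.333, so no single-gene permutation test could pass the threshold.

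**Figure D3:**
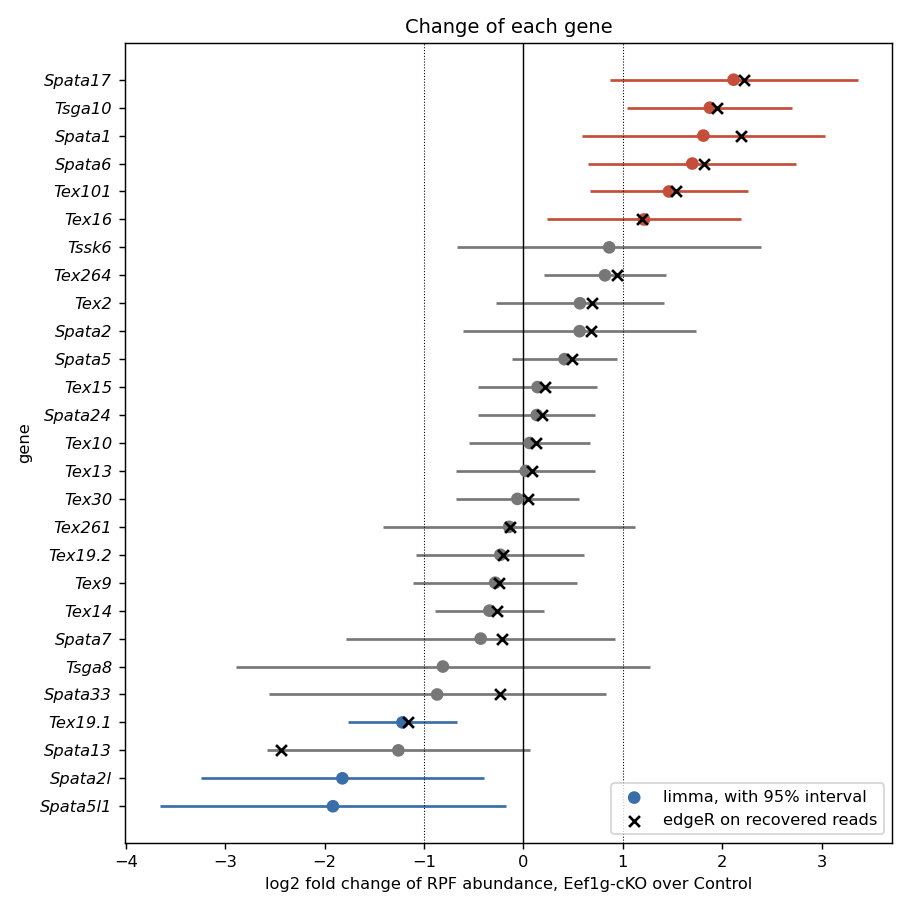
Log2 fold change of RPFs in *Eef1g*-cKO against Control for each member on the log2(FPKM + 1) scale, from limma with its 95% confidence interval (red, increased; blue, decreased; grey, no call) and from edgeR as a cross, with dotted lines at the fold threshold. *Spata17* (2.12) and *Tsga10* (1.88) stood at the high end, and the points of *Spata5l1* and *Spata2l*, which had 0 reads in *Eef1g*-cKO, depend on the pseudocount and are no measure of size.

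Of the genes listed for spermatids and sperm structure, 6 of 52 symbols were members in the table, and 4 of these 6 were increased and none decreased, with a median log2 fold change of 1.58. The unadjusted backgrounds were 7.32% and 16.3%. By adjusted p, limma called 1 of the 6 increased (2.87% of all genes) and edgeR 4 of the 5 it tested (8.75%). *Tex101* had 1835 and 2291 FPKM in Control and 6072 and 5281 FPKM in *Eef1g*-cKO, from 4796, 3342, 1433 and 2271 reads. Both *Eef1g*-cKO values were above both Control values, and this was the member with the most reads in every library. The means were 2063 ± 322 FPKM (SD, n = 2) and 5677 ± 559 FPKM (SD, n = 2), a ratio of 2.75. The log2 fold change of 1.47 (SE 0.32) had an adjusted p of 0.0519 in limma and of 6.8e-05 in edgeR. TEX101 acts as a chaperone-like partner in the maturation of sperm surface proteins and is not itself a structural protein of sperm.

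*Tsga10* encodes a protein of the sperm tail and of the mitochondrial sheath of the midpiece. Its RPFs stood at 16.1 and 8.98 FPKM in Control and 45.9 and 48.1 FPKM in *Eef1g*-cKO, from 167, 52, 43 and 82 reads. The groups did not overlap and the *Eef1g*-cKO libraries were close to each other, at 12.5 ± 5.04 FPKM (SD, n = 2) against 47.0 ± 1.51 FPKM (SD, n = 2). The ratio was 3.75 and the log2 fold change 1.88 (SE 0.34; limma, adjusted p = 0.0379; edgeR, adjusted p = 0.000139). *Tsga10* ranked 3974 and 5629 among all genes of the Control libraries and 1766 and 1598 in *Eef1g*-cKO.

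*Spata6* is needed for the connecting piece that joins the sperm head to the tail. It had 6.78 and 3.26 FPKM in Control and 18.3 and 17.1 FPKM in *Eef1g*-cKO, from 41, 11, 10 and 17 reads. The means of 5.02 ± 2.49 FPKM (SD, n = 2) and 17.7 ± 0.868 FPKM (SD, n = 2) gave a log2 fold change of 1.70 (SE 0.42; limma, adjusted p = 0.0630; edgeR, adjusted p = 0.0203). *Spata17*, which encodes a calmodulin-binding protein with IQ motifs, had 5.15 and 1.76 FPKM against 19.0 and 14.9 FPKM. This was the largest fitted increase among the members, at 2.12 (SE 0.51; limma, adjusted p = 0.0588; edgeR, adjusted p = 0.0257), and it rested on 21, 4, 7 and 10 reads. On reads pooled by genotype, *Spata17* was 4.16-fold higher in RPM (95% interval 2.11 to 8.01, counting error only).

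The remaining members of this role did not pass the test. *Spata33*, which tethers calcineurin in the sperm tail, had 32.7 and 40.4 FPKM in Control and 8.62 and 42.6 FPKM in *Eef1g*-cKO, where the lower value is 1 read. The *Eef1g*-cKO libraries disagreed and spanned the Control values. The log2 fold change was −0.87 (SE 0.69). It was 0.22 when *Eef1g*-cKO replicate 1 was left out and −1.96, past the unadjusted threshold, when replicate 2 was. *Tsga8*, an X-linked gene expressed in haploid germ cells, had 7, 5, 1 and 0 reads, and Control over *Eef1g*-cKO was 1.96 on pooled reads with a 95% interval of 0.290 to 83.9, so no difference was detectable at this depth.

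**Figure D4:**
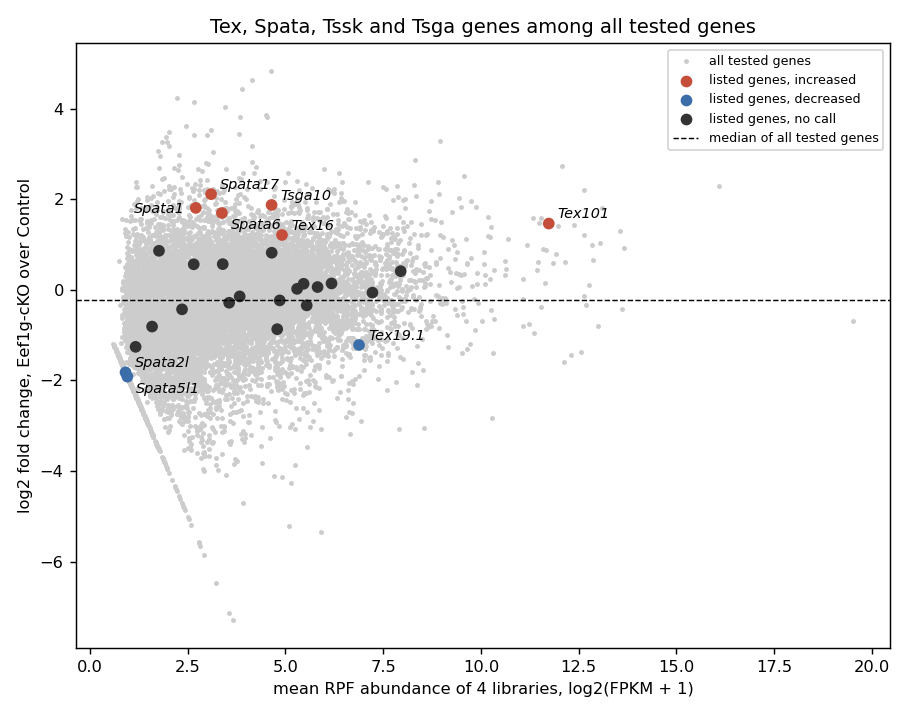
Log2 fold change of each member in *Eef1g*-cKO against Control plotted against its mean log2(FPKM + 1) over the 4 libraries, over the 10475 genes tested in grey, with members past the unadjusted threshold coloured and named and the median of all genes as a dashed line. *Tex101* was increased at the highest level, and the decreased *Spata2l* and *Spata5l1* lay on the slanted edge formed by genes at 0 FPKM in each *Eef1g*-cKO library.

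Of the 4 members known from premeiotic and meiotic germ cells, 1 was decreased and none increased at unadjusted p (16.3% and 7.32% of all genes), with a median log2 fold change of −0.29. *Tex19.1*, which restrains retrotransposons in germ cells and in the placenta and is needed for male meiosis, had 156.5 and 204.4 FPKM in Control and 79.6 and 73.3 FPKM in *Eef1g*-cKO. Both *Eef1g*-cKO values were below both Control values, and the reads behind them were 675, 492, 31 and 52. The means were 180.5 ± 33.8 FPKM (SD, n = 2) and 76.5 ± 4.47 FPKM (SD, n = 2), a ratio of 0.424. RPFs fell by 1.22 on the log2 scale (SE 0.22; limma, adjusted p = 0.0383), and edgeR gave −1.16 (adjusted p = 0.00205). After centring of the libraries the value was −1.003, close to the fold threshold. *Tex19.1* is expressed in spermatogonia as well as in early spermatocytes, and the spermatogonial marker sum was 0.184 of Control in the same libraries.

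*Tex19.2*, its paralog on the same chromosome, had 23.7 and 38.8 FPKM in Control and 30.6 and 21.6 FPKM in *Eef1g*-cKO, from 120, 110, 14 and 18 reads. The groups overlapped, and the log2 fold change was −0.23 (SE 0.34, 95% interval −1.08 to 0.61). This interval does not hold the −1.22 of *Tex19.1*, but it overlaps the 95% interval of *Tex19.1* (−1.76 to −0.67). The difference between the paralogs was not tested. In GRCm38.p6 *Tex19.1* lies at chr11:121146143-121148314 and *Tex19.2* at chr11:121116215-121118677. Their coding sequences of 351 and 317 codons share 731 of 948 aligned bases (77.1%), and 54 of the 1027 windows of 30 bases in *Tex19.1* also occur in *Tex19.2* (5.26%). RPFs are about that long, so a small part of the reads of either gene could not be assigned by sequence. The first 120 coding bases are shown, to set the paralogs side by side from their shared start, with the 4 differing positions in capitals.
*Tex19.1*: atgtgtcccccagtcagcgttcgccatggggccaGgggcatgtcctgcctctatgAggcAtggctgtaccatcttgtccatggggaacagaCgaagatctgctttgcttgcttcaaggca
*Tex19.2*: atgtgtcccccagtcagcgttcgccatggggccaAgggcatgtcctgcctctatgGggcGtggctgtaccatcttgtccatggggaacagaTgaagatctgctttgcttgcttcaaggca

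*Tex14*, which keeps the intercellular bridges between germ cells open, had 54.3 and 48.9 FPKM in Control and 38.4 and 42.6 FPKM in *Eef1g*-cKO. The *Eef1g*-cKO libraries were the lower pair, and the log2 fold change of −0.34 (SE 0.22; 95% interval −0.89 to 0.20; limma, adjusted p = 0.337) did not pass the test. *Tex15*, which acts in piRNA-directed DNA methylation and in meiotic recombination, had 77.2 and 59.8 FPKM in Control and 67.5 and 83.7 FPKM in *Eef1g*-cKO. Its groups overlapped, from 1610, 696, 127 and 287 reads, with a log2 fold change of 0.14 (95% interval −0.45 to 0.74).

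Of the 15 symbols listed as broadly expressed, 13 were members in the table, and 2 were decreased and none increased at unadjusted p, with a median log2 fold change of −0.06. Over all genes 16.3% were decreased, so 2 of 13 is near the background. edgeR called none of the 11 it tested by adjusted p. Both decreased members had 0 reads in *Eef1g*-cKO. *Spata2l*, a paralog of the deubiquitinase adaptor *Spata2*, had 9 and 13 reads in the Control libraries. *Spata5l1*, a partner of *Spata5* in ribosomal subunit maturation, had 19 and 2 there. With Control at 5.69 and 5.44 RPM over the pooled group and a floor of 4.75 RPM for 3 reads over the *Eef1g*-cKO group, no fold is given. The intervals of the pooled ratios reached 1.12 and 1.17, so a decrease of either was not detectable from counting alone.

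*Spata5* had 188.9 and 240.1 FPKM in Control and 280.9 and 287.2 FPKM in *Eef1g*-cKO, from 1363, 967, 183 and 341 reads. Its *Eef1g*-cKO libraries were the higher pair, and the log2 fold change of 0.41 (SE 0.21; 95% interval −0.11 to 0.94; limma, adjusted p = 0.244) did not pass the test. *Tex264*, an autophagy receptor of the endoplasmic reticulum, had 17.9 and 17.8 FPKM in Control and 30.9 and 33.9 FPKM in *Eef1g*-cKO. Its log2 fold change was 0.82 (SE 0.25; limma, adjusted p = 0.0939), short of the fold threshold, and 1.03 after centring, where it passed at unadjusted p. *Spata13*, a guanine nucleotide exchange factor for Rac and Cdc42, had 33, 35, 1 and 1 reads and a fitted log2 fold change of −1.26 (SE 0.54; limma, unadjusted p = 0.0585, adjusted p = 0.178), and edgeR gave −2.44 (adjusted p = 0.0636). In RPM on pooled reads, Control was 5.56-fold higher (95% interval 1.48 to 46.8, counting error only). *Spata13* reached the minimum mean only through Control, so it had to lie lower in *Eef1g*-cKO, and these values are no test of its direction.

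*Tex30*, which encodes a predicted hydrolase, had 131.0 and 175.9 FPKM in Control and 127.1 and 166.6 FPKM in *Eef1g*-cKO. *Tex10*, a subunit of a complex in ribosome biogenesis, had 53.3 and 55.5 FPKM against 66.9 and 48.2 FPKM. *Spata24* had 43.7 and 38.8 FPKM against 50.7 and 40.5 FPKM. The groups overlapped for these 3 genes, whose log2 fold changes were −0.06, 0.06 and 0.14. *Tex2*, which transfers lipids at the endoplasmic reticulum, had 8.32 and 7.02 FPKM in Control and 11.7 and 11.9 FPKM in *Eef1g*-cKO, without overlap. *Tex2*, *Tex9*, *Tex261*, *Spata2* and *Spata7* made up the rest of the broadly expressed members, with log2 fold changes from −0.43 in *Spata7* to 0.57 in *Tex2* and *Spata2*. None of these passed the test.

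*Tssk6*, a kinase of condensing spermatids, was the only one of 7 listed testis-specific serine kinase symbols that was a member in the table. It had 10, 1, 1 and 2 reads, or 3.09, 0.554, 3.42 and 3.76 FPKM, and a log2 fold change of 0.86 (SE 0.62; limma, adjusted p = 0.383). Control over *Eef1g*-cKO was 0.600 on pooled reads with a 95% interval of 0.158 to 3.35, so no difference was detectable at this depth.

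The function of the remaining 3 members is less clear, and *Spata1* and *Tex16* among them were increased. *Spata1* had 2.73 and 2.26 FPKM in Control and 16.3 and 7.66 FPKM in *Eef1g*-cKO, from 13, 6, 7 and 6 reads. Its *Eef1g*-cKO values were both higher but differed from each other, and the log2 fold change was 1.81 (SE 0.50; limma, adjusted p = 0.0758; edgeR, adjusted p = 0.0380). *Tex16*, on the X chromosome, had 27.1 and 12.9 FPKM in Control and 51.7 and 38.9 FPKM in *Eef1g*-cKO, from 267, 71, 46 and 63 reads. Its log2 fold change was 1.21 (SE 0.40; limma, adjusted p = 0.107; edgeR, adjusted p = 0.0108). *Tex13*, also X-linked, had 30.7 and 47.1 FPKM against 38.0 and 39.4 FPKM and a log2 fold change of 0.02. The 3 X-linked members, *Tex13*, *Tex16* and *Tsga8*, summed to 175 and 155 RPM in Control and 290 and 238 RPM in *Eef1g*-cKO.

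Some calls changed when 1 library was left out. Such a fit leaves 1 genotype with a single library, which is assumed to vary like the other genotype, so a lost call can come from fewer libraries as well as from a smaller difference. When Control replicate 1 was left out, limma no longer called *Spata1* at unadjusted p (log2 fold change 1.91), and *Spata13* passed as decreased (−1.59) and *Tssk6* as increased (1.56). When Control replicate 2 was left out, *Spata1* (1.71) and *Tex16* (0.71) no longer passed. *Tex101* (1.36) no longer passed when *Eef1g*-cKO replicate 1 was left out, while *Tsga8* (−1.99) then passed as decreased against a single library with 0 reads. *Spata5l1* fell below the minimum mean when Control replicate 1 was left out and *Spata2l* when Control replicate 2 was. *Tsga10* and *Tex19.1* kept their unadjusted calls in each of the 4 limma fits that left out 1 library. When Control replicate 1 was left out their log2 fold changes were larger in size, at 2.26 and −1.41, and their adjusted p in limma was 0.129 and 0.145. When Control replicate 2 was left out they were 1.49 and −1.03, with adjusted p of 0.208 and 0.224.

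The edgeR calls by adjusted p shrank as well. *Tex101* and *Tsga10* were called increased in each of the 4 edgeR fits that left out 1 library, and were the only 2 members increased when Control replicate 2 or *Eef1g*-cKO replicate 1 was left out. *Tex16* joined them when *Eef1g*-cKO replicate 2 was left out, for 3 in all, and *Tex16* and *Spata6* when Control replicate 1 was, for 4 in all. *Tex19.1* was called decreased in these edgeR fits except when *Eef1g*-cKO replicate 2 was left out.

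Summed over all 27 members, RPFs made up 4588 and 5172 RPM in Control and 9433 and 8650 RPM in *Eef1g*-cKO, or 4880 ± 413 against 9041 ± 553 (SD, n = 2), 1.85-fold higher. *Tex101* supplied 42.2% and 46.7% of this sum in the Control libraries, against 67.9% and 64.4% in *Eef1g*-cKO. Without *Tex101* the sum was 2654 and 2758 RPM against 3033 and 3083 RPM, a ratio of 1.13. By role, the sum for spermatid and sperm structure was 2.76-fold higher, of which *Tex101* made up 94.5% to 97.1% in each library. The other 5 genes of that role summed to 112 and 73.0 RPM in Control and 277 and 289 RPM in *Eef1g*-cKO. The sum of the broadly expressed members was 1.18-fold higher, and the premeiotic and meiotic sum was 0.845 of Control, at 1235 and 1177 RPM against 956 and 1083 RPM.

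**Figure D5:**
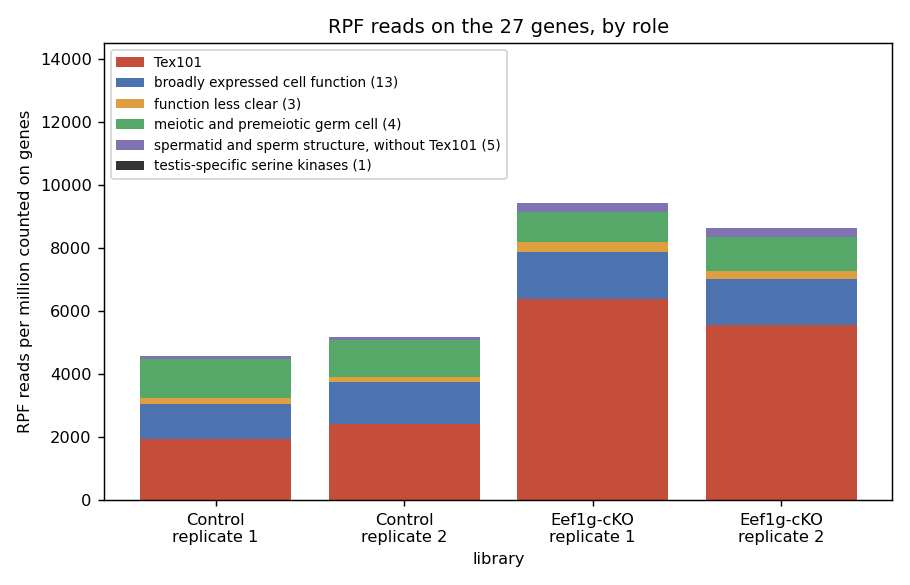
RPFs of the members in RPM, stacked by role with *Tex101* as the lowest segment, with 1 bar for each of the 2 Control and 2 *Eef1g*-cKO libraries. The bars reached 4588 and 5172 RPM in Control and 9433 and 8650 RPM in *Eef1g*-cKO, and most of the difference lay in the *Tex101* segment.

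A list of 50 other genes of spermiogenesis, named outside these 4 symbol families, gives the wider setting. Of these, 23 were in the table and 20 were tested, with a median log2 fold change of 0.26. At unadjusted p, 3 were increased and none decreased, and none passed by adjusted p in limma. edgeR called 3 of the 11 genes it tested increased by adjusted p. Over all genes the shares increased were 7.32% at unadjusted p in limma and 8.75% by adjusted p in edgeR. Among them were *Zpbp*, of the acrosomal matrix (2.23, SE 0.57, limma adjusted p = 0.0651), and *Hook1*, of the sperm manchette (1.27, SE 0.31, limma adjusted p = 0.0604). The summed RPFs of the list were 650 and 540 RPM in Control and 826 and 838 RPM in *Eef1g*-cKO.

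The coding sequences of the members, found for 26 of 27, had a median of 406.5 codons, from 157 in *Spata33* to 2785 in *Tex15*, against 491 codons over 10812 genes of the table. The share of G or C at the last codon position had a median of 56.7% over the members and 60.5% over all genes. It was 47.0% (30.8% to 59.8%) in the 6 increased members and 62.0% (29.4% to 83.2%) in the 18 without a call. These values describe the members and were not tested.

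The promoters of the most abundant increased member and of the decreased *Tex19.1* are shown to compare what lies upstream of members that moved in opposite directions. They are the 250 bases before the RefSeq start in GRCm38.p6, at chr7:24672051-24672300 (minus strand) for *Tex101* and chr11:121145893-121146142 (plus strand) for *Tex19.1*, with a GC box in capitals.
*Tex101*: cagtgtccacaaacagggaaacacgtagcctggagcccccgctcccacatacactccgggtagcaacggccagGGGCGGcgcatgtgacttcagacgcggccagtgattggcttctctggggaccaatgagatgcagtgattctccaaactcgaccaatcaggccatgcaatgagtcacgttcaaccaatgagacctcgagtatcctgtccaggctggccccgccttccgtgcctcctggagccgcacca
*Tex19.1*: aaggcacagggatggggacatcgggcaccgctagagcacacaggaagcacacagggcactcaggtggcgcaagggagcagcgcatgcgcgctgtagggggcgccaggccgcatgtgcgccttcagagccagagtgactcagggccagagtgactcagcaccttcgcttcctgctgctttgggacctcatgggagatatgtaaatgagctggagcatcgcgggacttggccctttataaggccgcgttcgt

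Motifs were searched on both strands in the promoters of the 24 members listed in the table of RefSeq promoters used here. The GC box GGGCGG occurred in 14 of the 24 members, against 35.4% of 27025 genes. These 27025 are all genes with a listed promoter, including genes absent from the 11598 of the RPF table, from which the members came. The members and this background are therefore not like for like, here and for the other motifs. It was present in 4 of 6 increased members, in 0 of 2 decreased members and in 10 of 16 without a call. The cAMP response element TGACGTCA occurred in 0 of 24 members (1.77% of all genes) and the E-box CACGTG in 0 of 24 (6.86%). The motif CNCCTCAG, bound by STRA8, occurred in 1 of 24 members, *Tex264* (7.39% of all genes). The cAMP response element and the E-box share the letters ACGT, and a match describes these letters only.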

How the data were processed

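Ribo-seq was deposited as 1 table of 11598 genes for 2 Control and 2 *Eef1g*-cKO libraries. Per the labels and the methods, reads were trimmed, filtered and aligned; the labels name cutadapt, Bowtie, STAR, mm10 and hg38 without roles, and the counter and annotation are not given in the sources used here. The deposited FPKM scale each gene's reads by its length in kilobases and by the library's reads on genes, in units of 1000000. The normalized counts, a signal the authors made by dividing each count by a size factor per library, were whole multiples of 1 step in 100% of values (tolerance 1e-06 reads), which gave back the reads. The deposited log2 fold changes, errors, test score and p-values are the authors' own comparison and were not used; the table also holds gene length and the mean normalized count.

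Members were taken by symbol, 26 matching the RefSeq annotation of GRCm38.p6 directly and 1 (*Tex13*) by an older symbol. Coordinates serve for orientation only, since the authors' annotation is unknown. Members and lists were chosen with earlier results of these data known. Named in full are members past a threshold, the highest in level and up to 2 per role; the remaining members are named for completeness. The values of 1 gene outside the members are not reported here.

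Genotypes were compared two-sided on log2(FPKM + 1) with limma 3.58.1 in R 4.3.3, using a trended prior variance. The 10475 genes averaging 1 FPKM or more over the 4 libraries were tested, with Benjamini-Hochberg adjustment over all of them. A call needed a log2 fold change past 1 in size and p below 0.05. edgeR 4.0.16 (TMM, quasi-likelihood) and DESeq2 1.42.0 on the recovered reads were alternatives, beside other pseudocounts, filters, scalings, priors, a replicate block and leaving out each library. Scripts were tested on simulated data. Depth was 223906 to 2479504 reads. Intervals of log2 fold changes are 95% intervals from limma's moderated standard errors and reflect the spread between libraries. Intervals of ratios on pooled reads are exact at 95%. The exact intervals, with the floor of 3 reads for a count of 0, cover counting error only, since PCR copies are not independent molecules. Reads from paralogs or overlapping genes may be shared.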

Additional observations from a re-analysis of the deposited data

How the results depend on the processing

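The 6 increases at unadjusted p became 4 to 7 over all alternatives, and the median over members ran from 0.06 to 0.30. Calls by adjusted p moved most. The 1 increase by adjusted p became 0 with a pseudocount of 0.1 FPKM and with an untrended prior, 4 with a pseudocount of 5 FPKM, with a minimum mean of 5 FPKM and with centred libraries, 6 with edgeR, 5 with edgeR without a filter, 3 with DESeq2, and 0 to 5 when 1 library was left out. The 1 decrease by adjusted p became 0 with a pseudocount of 0.1 FPKM and with an untrended prior, and 0 to 2 when 1 library was left out. The 3 decreases at unadjusted p became 1 with a pseudocount of 5 FPKM, with a minimum mean of 5 FPKM and with DESeq2, and 2 to 4 when 1 library was left out; the minimum mean of 5 FPKM removed both genes with 0 reads in *Eef1g*-cKO. The summed fold of 1.85 ran from 1.75 to 1.97 when 1 library was left out. The cause of the other changes was not tested.

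With the replicate number as a block, 4 members were increased and 1 decreased by adjusted p, and 6 and 3 at unadjusted p. Deviations of libraries with the same number did not go together (r = −0.00804 over 10475 genes, which are not independent). The *Eef1g*-cKO libraries had a median of only 5 and 8 reads per gene, so this check cannot decide whether libraries with the same number were paired.

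Of 365 single-gene values under alternatives, 325 kept their direction and side of the threshold, 11 lost and 9 gained a call, and 20 changed sign, all of them uncalled. When 1 library was left out, the sign changes lay within ranges of −0.024 to 0.29 in *Spata24*, −1.96 to 0.22 in *Spata33*, −0.99 to 0.13 in *Spata7*, −0.17 to 0.30 in *Tex10*, −0.28 to 0.32 in *Tex13*, −0.039 to 0.32 in *Tex15*, −0.58 to 0.11 in *Tex19.2*, −0.67 to 0.38 in *Tex261*, −0.27 to 0.15 in *Tex30* and −1.99 to 0.37 in *Tsga8*. Centring gave *Tex261* 0.070 and *Tex30* 0.15, and *Tex30* was 0.046 in edgeR, 0.043 in edgeR without a filter and 0.023 in DESeq2.

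Depth limits the members with few reads, since 11 of the 27 had fewer than 10 in an *Eef1g*-cKO library.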
